A study of Mus musculus with 6 samples.

Results

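The CCN family comprises 6 secreted matricellular proteins, Ccn1 to Ccn6, and its transcripts were followed here in mouse aorta with and without Prdm16 in smooth muscle. Members were taken by gene name from the 55487 genes of the count table, and all 6 were found. The family was put forward with the lower Ccn3 count of the knockout aortas already known, so the members were chosen by values from the same contrast. Their levels and fold changes are therefore given as a description, with no p-value. Whether a member fell among the genes called in the fit over all genes is stated as a property of that fit and is not support for its direction.

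CCN proteins sit in the extracellular matrix and bind integrins, heparan sulfate proteoglycans, LRP receptors and growth factors such as TGF-β, BMPs and VEGF, rather than serving as structural fibres. In blood vessels, Ccn1 and Ccn2 are known as rapidly induced products of mechanical strain, YAP/TEAD, SRF and TGF-β signaling, while Ccn3 and Ccn5 are known to restrain smooth muscle proliferation and migration. A full-length member carries an IGF-binding-protein-like module, a von Willebrand type C repeat, a thrombospondin repeat and a C-terminal cysteine knot, and Ccn5 lacks the last of these.

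RNA was sequenced from male mouse aortas on a C57BL/6 background, stripped of adventitia, with 3 libraries of the iSM KO group and 3 of the Control group. The Y-linked Myh11-CreERT2 transgene was present in both groups. Tamoxifen was given to both from 8 weeks of age (1 mg per mouse per day for 10 days with a break), and the aortas were taken after 2 weeks of washout plus 60 more days. The iSM KO mice were Prdm16 F/F, homozygous for an allele with floxed exon 9, and the Control mice were Prdm16 W/W. Recombination was thus limited to cells that express Myh11, whereas the RNA came from the whole remaining wall. The libraries held between 24911609 and 40460467 counts, and 16565 genes passed the filter on low counts (a rounded count above 10 in each of the 3 libraries of a group). Normalized levels are given as CPM, which scales each count to the library's TMM-adjusted total. Prdm16 itself measured 182.9, 223.0 and 178.5 CPM in Control 1 to 3 and 93.8, 113 and 79.8 CPM in iSM KO 1 to 3, a log2 fold change of -1.03 (SE 0.14, FDR 0.00265, edgeR). Smooth muscle transcripts dominated the marker lists, at a summed 22280 to 27310 CPM in Control and 23980 to 26420 CPM in iSM KO aortas. In these bulk samples, fewer cells of a type and less RNA per cell cannot be told apart. The libraries of a group came from separate mice. An exact permutation test of 3 against 3 libraries cannot go below p = 0.1.

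The family is recognised by its cysteines. In the principal transcripts of the GENCODE annotation (GRCm38), each of the 6 genes has 5 exons. The open reading frames hold 348 codons (Ccn2) to 379 codons (Ccn1), except for the 251 codons of Ccn5. Cysteine codons number 37 to 40 in the long members and 29 in Ccn5, and made up at most 11.6% of all codons (Ccn5). The translated frames shared 38.2% (Ccn1 and Ccn6) to 52.0% (Ccn1 and Ccn2) of their aligned residues, and Ccn2 and Ccn3 shared 51.3%. The coding stretch of the IGF-binding motif is shown because it is found in all 6 members, 24 bases long and matched at 1 place in each frame, with its 4 cysteine codons in capitals. It lies in exon 3 of Ccn5 and in exon 2 of the others, and is read on the coding strand of GRCm38.
Ccn1 (chr3:145649331-145649354, minus strand): ggcTGCggcTGCTGTaaggtcTGC
Ccn2 (chr10:24595966-24595989, plus strand): ggcTGCggcTGCTGCcgcgtcTGC
Ccn3 (chr15:54746265-54746288, plus strand): ggcTGCtccTGCTGTccggtgTGC
Ccn4 (chr15:66906545-66906568, plus strand): ggcTGTgaaTGCTGTaagataTGT
Ccn5 (chr2:163825225-163825248, plus strand): ggcTGTggcTGCTGTcgagtgTGT
Ccn6 (chr10:39158371-39158394, minus strand): ggcTGTggaTGCTGCaaagtcTGT
The stretch was found by the residue pattern GCxCCxxC, with x for any residue, so the places of the cysteine codons are set by the search. The codons between them differ only in part, and ggc follows the first cysteine codon in Ccn1, Ccn2 and Ccn5.

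Of the 6 members, 5 passed the filter on low counts. Among those 5, Ccn3 and Ccn4 passed an FDR of 0.05 regardless of fold size, Ccn3 being lower and Ccn4 higher in iSM KO aortas. Over all tested genes, 7.56% had such an FDR, 4.26% higher and 3.3% lower. Ccn3 was also among the genes with an FDR under 0.05 and a fold change over 2, which made up 2.78% of all tested genes. The CPM ranges of the groups did not overlap for Ccn2, Ccn3 and Ccn4, as for 27.9% of all tested genes. Because the family was selected on this contrast, nothing is read from these counts.

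Ccn3 (ENSMUSG00000037362, chr15:54745702-54754039), a matricellular inhibitor of smooth muscle proliferation that also binds Notch receptors, was the member with the largest log2 fold change in size among those tested. It measured 922.8, 934.7 and 1100 CPM in Control 1 to 3 and 427.2, 383.4 and 400.0 CPM in iSM KO 1 to 3. The highest iSM KO library lay far below the lowest Control library. The group means were 986 ± 98.9 and 404 ± 22.1 CPM (SD, n = 3 each), a log2 fold change of -1.29 (SE 0.10), or 2.44-fold lower in iSM KO. The difference stayed between -1.33 and -1.21 when each library was left out in turn. These values rest on 13378 to 35919 counts per library.

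**Figure D1:**
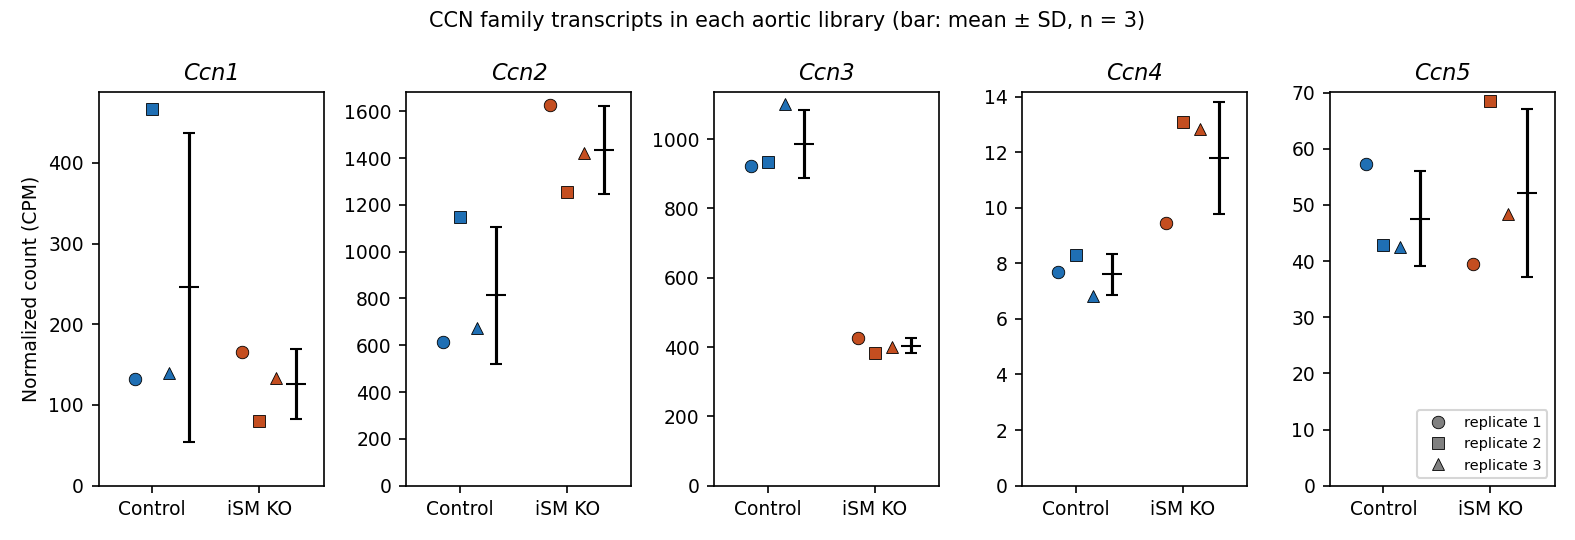
Normalized counts (CPM, linear axes from 0) of the 5 tested CCN genes in each library, blue for Control and orange for iSM KO, with the mean ± SD of 3 libraries as a bar beside the points. The 3 iSM KO points of Ccn3 lie between 383.4 and 427.2 CPM, below all Control points, while Control 2 stands far above the other Control libraries for Ccn1 and Ccn2.

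Ccn2 (ENSMUSG00000019997, chr10:24595442-24598683), known as connective tissue growth factor and a reporter of TGF-β and YAP activity, lay in the opposite direction. It measured 615.6, 1149 and 674.8 CPM in Control 1 to 3 and 1627, 1255 and 1420 CPM in iSM KO 1 to 3. The groups did not overlap, but Control 2 came close to the lowest iSM KO library. The means were 813 ± 293 and 1434 ± 186 CPM (SD, n = 3 each), and the log2 fold change was 0.82 (SE 0.22). Ccn2 was not among the called genes here, and was called with limma-voom, without the filter on low counts, or without Control 2. Leaving out Control 2 raised its log2 fold change to 1.15, the highest of the 6 fits that lacked a library, and the lowest was 0.65. Ccn2 overlaps the antisense gene Gm15270 over 665 exonic bases, and the use of strand in the counting is not stated, so reads of the pair cannot be told apart. The deposited counts of the pair summed to a whole number in all 6 libraries (tolerance 0.01), and Gm15270 received 0.484% to 0.919% of the Ccn2 count.

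Ccn1 (ENSMUSG00000028195, chr3:145646976-145649981), the cysteine-rich angiogenic inducer also known as Cyr61, varied mostly among the Control libraries. It measured 131.6, 467.1 and 139.5 CPM in Control 1 to 3 and 165.1, 79.6 and 134 CPM in iSM KO 1 to 3. The groups overlapped, and Control 2 alone was above the highest iSM KO library. The means were 246 ± 191 and 126 ± 43.2 CPM (SD, n = 3 each), with a log2 fold change of -0.97 (SE 0.47) that became -0.10 without Control 2. Among the 16565 tested genes, the SD of log2 CPM over Control libraries was at the 98.8th percentile for Ccn1 (1.03) and at the 87.5th for Ccn2 (0.49), against a median SD of 0.19. Ccn3 stood at the 36.0th percentile. Over iSM KO libraries the SD of Ccn1 was 0.54, at percentile 93.2, against a median SD of 0.13.

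Ccn4 (ENSMUSG00000005124, chr15:66891320-66923201), a Wnt-inducible member also known as Wisp1, was low throughout. It measured 7.67, 8.30 and 6.84 CPM in Control 1 to 3 and 9.45, 13.1 and 12.8 CPM in iSM KO 1 to 3. All iSM KO libraries were above all Control libraries, iSM KO 1 by the smallest margin. The means were 7.60 ± 0.74 and 11.8 ± 2.03 CPM (SD, n = 3 each), a log2 fold change of 0.63 (SE 0.15) on 163 to 469 counts per library. Ccn4 was not among the called genes with limma-voom (log2 fold change 0.59) or without Control 1, Control 3, iSM KO 2 or iSM KO 3, and in these last fits its log2 fold change was 0.64, 0.56, 0.54 and 0.56.

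Ccn5 (ENSMUSG00000027656, chr2:163820861-163833146), the short member also known as Wisp2, measured 57.3, 42.9 and 42.4 CPM in Control 1 to 3 and 39.5, 68.6 and 48.3 CPM in iSM KO 1 to 3. The lowest and the highest value both came from iSM KO libraries, so the groups overlapped. The means were 47.6 ± 8.47 and 52.1 ± 14.9 CPM (SD, n = 3 each), a log2 fold change of 0.13 (SE 0.20), which turned to -0.12 without iSM KO 2. Ccn6 (ENSMUSG00000062074, chr10:39150970-39163794), a member known for its role in cartilage, had 0 counts in all Control libraries and in iSM KO 1, 2 counts in iSM KO 2 and 1 count in iSM KO 3. A count of 0 allows up to 3 counts, which is 0.0736 to 0.126 CPM per library, so Ccn6 was not detectable at this depth and has no fold change. That limit covers counting error only. Ccn6 also overlaps Tube1 on the other strand over 482 exonic bases, and Tube1 had 5 to 24 counts per library. Reads of this pair cannot be told apart either.

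Levels were compared between members per kilobase of merged exon. In Control aortas, Ccn3 was first with a mean of 344 CPM per kilobase (321.7 to 383.3), followed by Ccn2 with 284 (215.2 to 401.7), Ccn1 with 122 (65.2 to 231.3), Ccn5 with 24.7 (22.1 to 29.8) and Ccn4 with 1.37 (1.23 to 1.49). The ranges of Ccn3 and Ccn2 overlapped, as did those of Ccn2 and Ccn1, so neither of these neighbours was separated beyond the spread between libraries. Ccn5 was below every Ccn1 value and Ccn4 below every Ccn5 value. Ccn3 ranked 40th, Ccn2 50th and Ccn1 142nd by Control mean per kilobase among 13155 tested protein-coding genes, with Ccn5 933rd and Ccn4 9630th. In iSM KO aortas Ccn2 came first with a mean of 501 CPM per kilobase and rank 28, and Ccn3 second with 141 and rank 121, their ranges being 438.8 to 568.8 and 133.6 to 148.9. Ccn1 followed with 62.4 CPM per kilobase, Ccn5 with 27.1 and Ccn4 with 2.12.

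**Figure D2:**
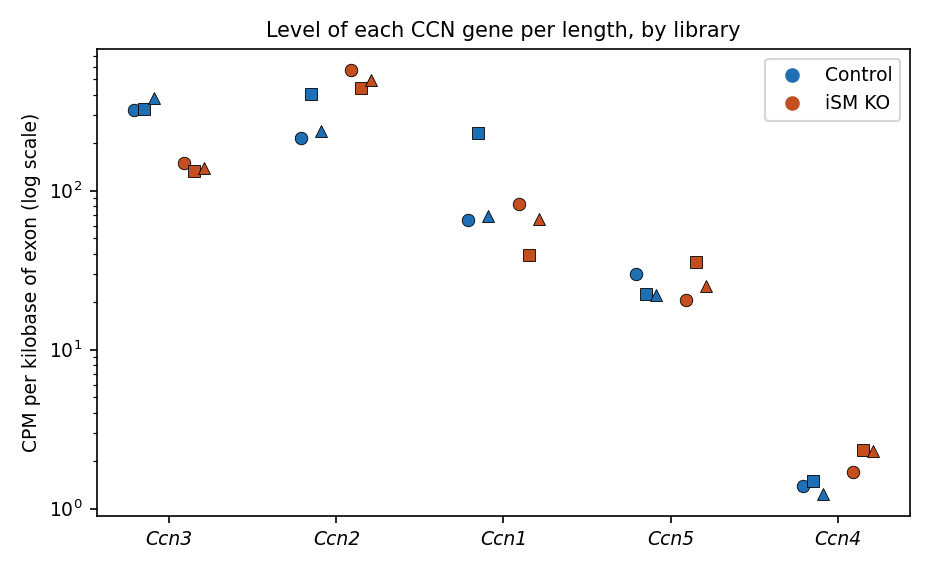
Level of each tested CCN gene in CPM per kilobase of exon (log axis), 1 point per library, blue for Control and orange for iSM KO, with circles, squares and triangles for replicates 1, 2 and 3. Ccn3 and Ccn2 share a range in Control aortas and lie apart in iSM KO aortas, while Ccn4 reaches at most 2.35 in the 6 libraries.

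The make-up of the family differed between the groups while its total overlapped. The summed level of the 6 genes was 633.2, 982.7 and 711.6 CPM per kilobase in Control 1 to 3 and 821.7, 649.9 and 729.4 in iSM KO 1 to 3. Ccn3 made up 50.8%, 33.2% and 53.9% of that sum in Control 1 to 3 and 18.1%, 20.6% and 19.1% in iSM KO 1 to 3. The share of Ccn2 was 34.0%, 40.9% and 33.1% in Control 1 to 3 and 69.2%, 67.5% and 68.1% in iSM KO 1 to 3. Neither share overlapped between the groups, and Control 2 was the Control library nearest to the iSM KO libraries in both. The shares are parts of the same sum, so the lower Ccn3, known when the family was chosen, by itself raises the share of Ccn2. Ccn2 was not among the called genes of the main fit. The ratio of Ccn3 to Ccn2 per kilobase within a library was 1.49, 0.811 and 1.63 in Control and 0.262, 0.304 and 0.281 in iSM KO. Ccn1 held 9.71% to 23.5% of the sum in Control and 6.07% to 9.95% in iSM KO, its highest share again being that of Control 2.

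**Figure D3:**
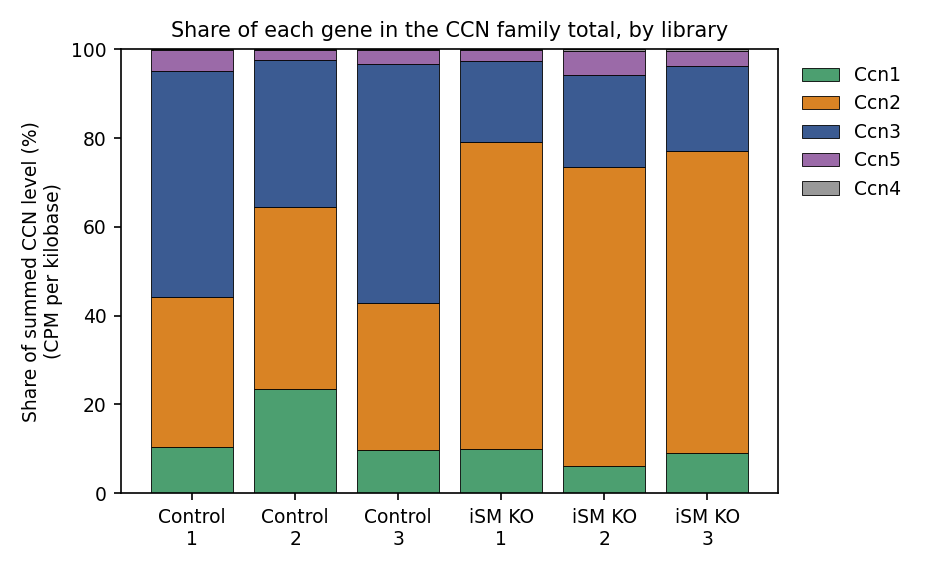
Share (%) of each CCN gene in the summed CPM per kilobase of the family, 1 stacked bar per library. The Ccn2 segment takes 33.1% to 40.9% of the Control bars and 67.5% to 69.2% of the iSM KO bars, and the Ccn3 segment shrinks from 33.2% or more to 20.6% or less.

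Control 2 differed from the other Control libraries in Ccn1 and in immediate early genes, the transcription factors and phosphatases that cells switch on within minutes of a stimulus. Ccn1 in Control 2 was 3.44 times the mean of the other Control libraries, a ratio exceeded by 54 of the 16565 tested genes (0.326%). Ccn2 was 1.78 times as high there, a ratio exceeded by 3.25% of genes, and Ccn3 0.924 times. The same ratio was 4.76 for Fos and 2.54 for Egr1, and Control 2 held the highest value of 14 of the 22 listed immediate early genes, against 14.9% of all tested genes. Fos, a subunit of the AP-1 transcription factor, measured 50.3, 213.4 and 39.3 CPM in Control 1 to 3 and 13.9, 14.4 and 13.9 CPM in iSM KO 1 to 3. It was lower in all 3 iSM KO libraries than in any Control library. The fitted log2 fold change of Fos was -2.85 (SE 0.58, FDR 0.0190, edgeR), and -1.67 without Control 2. Egr1, a zinc-finger factor of the same class, measured 147.3, 337.6 and 118.6 CPM in Control 1 to 3 and 203.5, 231.5 and 223.1 CPM in iSM KO 1 to 3, with overlapping groups. Its log2 fold change of 0.12 (SE 0.33) did not pass the test and became 0.72 without Control 2, where it passed. Of the 22 genes, 4 fell in iSM KO aortas (Fos, Dusp1, Ier2 and Btg2), Maff rose, and 17 did not pass the test. The called genes were 22.7% of the list, against 7.56% of all tested genes. This list and the lists of regulators, targets, receptors and partners below were chosen with earlier results of these data known. Their called shares are therefore not read as enrichment. The median log2 fold change was -0.48, against -0.014 over all genes. The calls of Dusp1 and Ier2 were lost without iSM KO 2, those of Fos without iSM KO 1 or 2, and that of Btg2 without iSM KO 2 or 3. The part of immediate early activation in the Ccn1 and Ccn2 values was not tested.

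**Figure D4:**
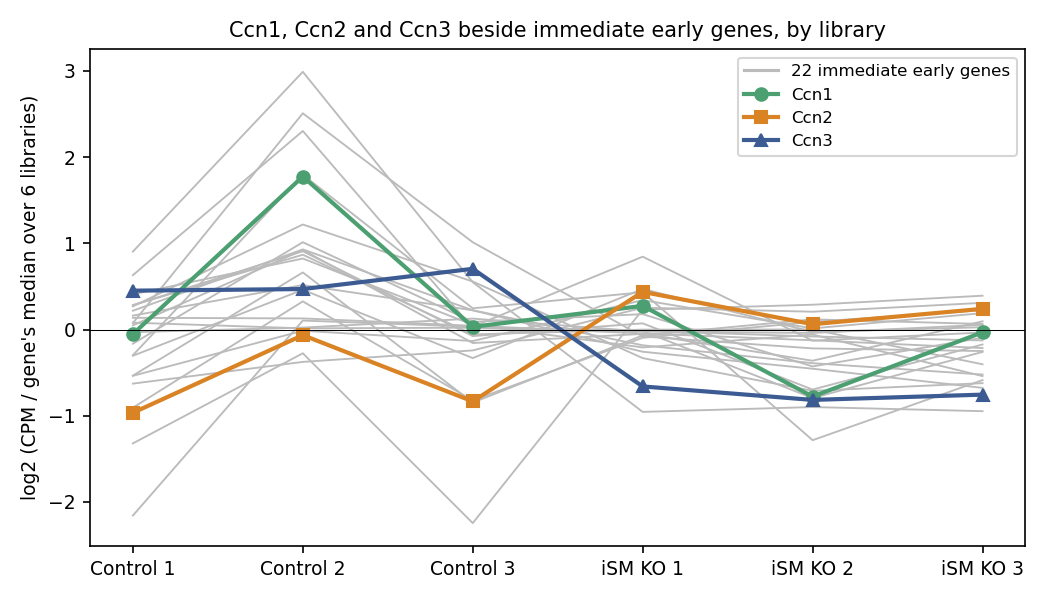
Log2 of CPM over the gene's own median of the 6 libraries, for Ccn1, Ccn2, Ccn3 and, in grey, the 22 immediate early genes. Lines only join the values of a gene. Ccn1 peaks in Control 2 together with 14 of the grey lines, Ccn3 does not, and Ccn2 is higher in Control 2 than in the other Control libraries yet below all iSM KO libraries.

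Regulators of Ccn1 and Ccn2 were examined next. YAP and TAZ are coactivators held in the cytoplasm by the Hippo kinases, and TEAD factors bring them to DNA. Of 16 Hippo and TEAD factors, Yap1 rose in iSM KO aortas and 15 did not pass the test (6.25% called, against 7.56% of all genes), with a median log2 fold change of 0.0069. Yap1 measured 104.3, 96.7 and 83.9 CPM in Control 1 to 3 and 143.3, 138.4 and 122.7 CPM in iSM KO 1 to 3 (log2 fold change 0.51, SE 0.10, FDR 0.0180, edgeR), and did not pass without iSM KO 1 or 2. Wwtr1, which encodes TAZ, had a log2 fold change of 0.00 (SE 0.10) and Tead1 of 0.34 (SE 0.16), and neither passed the test. Of 20 genes known as YAP and TEAD targets, the CCN genes aside, 4 rose (Ankrd1, Tgfb2, Axl and Dock5), F3 fell and 15 did not pass. That is 25.0% of the list, against 7.56% of all genes, with a median log2 fold change of 0.095. Tgfb2 is counted again among the partners of CCN proteins below.

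Ankrd1, a muscle ankyrin-repeat protein and a commonly used YAP target, measured 5.79, 7.86 and 5.12 CPM in Control 1 to 3 and 48.6, 55.1 and 39.0 CPM in iSM KO 1 to 3. The groups were far apart, with a log2 fold change of 2.91 (SE 0.18, FDR 6e-05, edgeR) that ranged from 2.79 to 3.12 without each library. Axl, a receptor tyrosine kinase, rose by a log2 fold change of 0.44 (SE 0.08) and Dock5, a Rac activator, by 0.31 (SE 0.07), while F3, the tissue factor that starts coagulation, fell by 0.81 (SE 0.20). Axl did not pass without iSM KO 2. Of the 6 fits that lacked a library, Dock5 passed in that without Control 3 alone and F3 in that without Control 2 alone. SRF, which drives both immediate early and contractile genes, had a log2 fold change of 0.36 (SE 0.10, FDR 0.0676, edgeR) and did not pass. It passed with DESeq2, without the filter on low counts, or without Control 2. Its smooth muscle coactivator Myocd rose from 216.0, 205.6 and 162.2 CPM in Control 1 to 3 to 328.7, 296.5 and 290.0 CPM in iSM KO 1 to 3. Myocd had a log2 fold change of 0.65 (SE 0.12, FDR 0.0109, edgeR) and did not pass without iSM KO 1. It was the only one of 7 SRF factors to pass (14.3% called, against 7.56% of all genes), with a list median of 0.23.

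Upstream sequence was at hand for Ccn1 and Ccn6 alone, 2 of the 6 members. The 250 bases before the RefSeq start of Ccn1 (GRCm38.p6, chr3:145649986-145650235, minus strand, 5′ to 3′) are shown because Ccn1 is a textbook YAP and TEAD target, with a TEAD motif in capitals.
Ccn1 upstream: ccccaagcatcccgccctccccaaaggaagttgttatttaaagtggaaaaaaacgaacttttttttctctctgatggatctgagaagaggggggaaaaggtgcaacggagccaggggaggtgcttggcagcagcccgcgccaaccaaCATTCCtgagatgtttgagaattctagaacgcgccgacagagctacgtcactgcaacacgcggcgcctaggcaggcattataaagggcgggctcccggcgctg
The motif GGAATG was searched on both strands and lies on the other strand here, at positions -103 to -98 counted back from -1 at the base before the start. It occurs in 14.7% of the 32851 RefSeq promoter windows of the same length, which reach 50 bases past the start. GGAATT, AP-1 (TGANTCA), the SMAD box (GTCTAGAC), CAGACA, the SRF CArG box and TCF (CTTTGAT) had no match in the windows of Ccn1 and Ccn6, and occur in 12.2%, 7.81%, 0.213%, 21.0%, 1.63% and 3.73% of all windows. None of these motifs overlaps another in the Ccn1 window.

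TGF-β, the classical inducer of Ccn2, was followed through its ligands and its target genes. Tgfb2 measured 66.3, 61.2 and 44.9 CPM in Control 1 to 3 and 114.9, 128.4 and 110.8 CPM in iSM KO 1 to 3. It rose by a log2 fold change of 1.04 (SE 0.14, FDR 0.00260, edgeR), with no overlap between the groups. Tgfb1 had a log2 fold change of 0.34 (SE 0.09, FDR 0.0575, edgeR) and Tgfb3 of 0.17 (SE 0.15, FDR 0.548, edgeR), and neither passed. Tgfb1 did pass with DESeq2 or without the filter on low counts. Its values did not overlap, at 51.95 to 53.4 CPM in Control and 60.32 to 75.65 CPM in iSM KO. Of 12 TGF-β target genes, Ltbp2, Pmepa1 and Tgif1 rose, none passed as lower and 9 did not pass (25.0% called, against 7.56% of all genes), with a median log2 fold change of 0.021. Of the 12, 58.3% had a positive log2 fold change. Among the 9, Col1a1 (-0.50, SE 0.13) and Col1a2 (-0.36, SE 0.10) were lower in all iSM KO libraries than in any Control library. Both passed with DESeq2 or without the filter on low counts. Smad7 (0.00, SE 0.14) and Skil (0.04, SE 0.09) passed in no fit. Ltbp2, a microfibril protein related to the TGF-β binding proteins, measured 149.0, 155.6 and 125.7 CPM in Control 1 to 3 and 256.4, 273.7 and 239.0 CPM in iSM KO 1 to 3 (log2 fold change 0.84, SE 0.10). Pmepa1, a feedback inhibitor of SMAD signaling, had a log2 fold change of 0.52 (SE 0.11) and Tgif1, a corepressor of SMADs, of 0.69 (SE 0.17), and of the 6 fits that lacked a library Pmepa1 passed only without Control 2 and Tgif1 only without Control 1.

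Wnt signaling is known to induce Ccn4. Of 13 Wnt target genes, 8 were tested, 2 rose and 6 did not pass (25.0% called, against 7.56% of all genes), with a median log2 fold change of 0.11. Lgr6, an R-spondin receptor, measured 468.2, 470.6 and 444.3 CPM in Control 1 to 3 and 727.0, 759.3 and 712.3 CPM in iSM KO 1 to 3. Its log2 fold change was 0.67 (SE 0.08, FDR 0.00174, edgeR). Nkd1, a feedback inhibitor of Wnt signaling, rose by a log2 fold change of 0.65 (SE 0.10, FDR 0.00580, edgeR). Both were called in all 6 fits that lacked a library. Those that did not pass include Axin2 (-0.01, SE 0.14), Tcf7 (0.00, SE 0.33), Znrf3 (0.08, SE 0.10) and Nkd2 (0.50, SE 0.18).

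CCN proteins act on cells through integrins, LRP receptors and proteoglycans. Of 14 listed receptors, 13 were tested, Itga5 rose and 12 did not pass (7.69% called, near the 7.56% of all genes), with a median log2 fold change of -0.081. Itga5, the fibronectin-binding α5 integrin, measured 309.3, 424.4 and 295.0 CPM in Control 1 to 3 and 694.4, 735.7 and 556.4 CPM in iSM KO 1 to 3. The groups did not overlap, and the log2 fold change was 0.95 (SE 0.16, FDR 0.00797, edgeR). Its partner Itgb1 had a log2 fold change of 0.23 (SE 0.10) and Itgav, which pairs with the β3 and β5 subunits, of 0.20 (SE 0.08), and neither passed. Itgb3 (-0.08, SE 0.15), Itgb5 (-0.13, SE 0.08) and Lrp1 (0.06, SE 0.09), an endocytic receptor for Ccn2, did not pass either on the log2 scale.

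Among 11 soluble and matrix partners of CCN proteins, Tgfb2 and Tnfrsf11b rose, Acan fell and 8 did not pass (27.3% called, against 7.56% of all genes), with a median log2 fold change of 0.17. Tnfrsf11b, the decoy receptor osteoprotegerin, measured 30.0, 32.5 and 33.6 CPM in Control 1 to 3 and 53.4, 42.5 and 56.7 CPM in iSM KO 1 to 3 (log2 fold change 0.67, SE 0.11, FDR 0.00827, edgeR). Acan, the large proteoglycan aggrecan, measured 73.0, 83.1 and 83.7 CPM in Control 1 to 3 and 29.4, 35.2 and 36.5 CPM in iSM KO 1 to 3. Its log2 fold change of -1.25 (SE 0.10, FDR 0.000206, edgeR) lay beside the -1.29 of Ccn3. Of the 7 IGF-binding proteins, the wider family that shares the N-terminal module, 6 were tested. Igfbp4 alone passed (16.7% called, against 7.56% of all genes), and the median log2 fold change was 0.099. Igfbp4 fell by 0.92 on the log2 scale (SE 0.17, FDR 0.0118, edgeR) and did not pass without iSM KO 1 or 2.

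**Figure D5:**
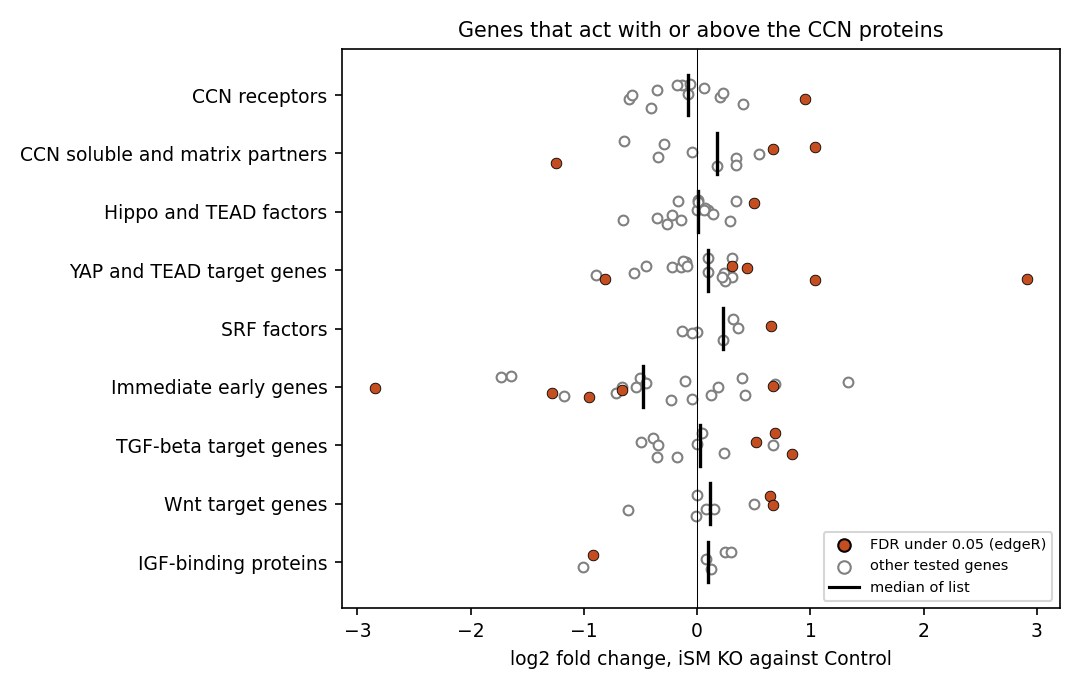
Log2 fold change of every tested gene in 9 lists of CCN receptors, partners, regulators and related genes, with filled points for an FDR under 0.05 (edgeR), open points for the rest and a black bar at the median of a list. The medians lie between -0.48 and 0.23, and 21 of the 111 distinct genes are filled, Ankrd1 farthest to the right at 2.91. Over all tested genes 7.56% had such an FDR. The lists were chosen with earlier results of these data known, so the count is not read as enrichment.

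Cell type markers that moved with the group stand beside the CCN values as follows. Of 4 tested chondrocyte markers, Acan, Sox9 and Comp fell and Col2a1 did not pass, and the summed level of the 6 listed markers was 105 to 119.4 CPM in Control and 43.3 to 51.9 CPM in iSM KO. Of 6 tested adipocyte markers 4 fell, Adipoq from 1.40, 11.1 and 4.61 CPM in Control 1 to 3 to 0.319, 0.172 and 0.630 CPM in iSM KO 1 to 3. The summed level of the 7 adipocyte markers overlapped (502.7 to 569.3 against 462.2 to 552.8 CPM), most of it Plin4, which did not pass (log2 fold change 0.08, SE 0.10). Without Plin4 the sum was 24.8, 108 and 71.8 CPM in Control 1 to 3 and 7.85, 7.08 and 11.6 CPM in iSM KO 1 to 3, with no overlap. Plin4 was left out after its values were seen, and 27.9% of all tested genes had ranges without overlap. Nothing is therefore read from that separation. Of 2 tested brown adipocyte markers Cidea fell (log2 fold change -1.87, SE 0.34), though not without iSM KO 2. Of 7 adventitial fibroblast markers Clec3b fell and 6 did not pass, with sums of 131.5 to 244.2 against 85.2 to 133.4 CPM. All 7 had a negative log2 fold change, with a median of -0.86. Of 7 smooth muscle markers Des, the muscle intermediate filament desmin, rose and 6 did not pass. Des measured 104.9, 159.4 and 149.4 CPM in Control 1 to 3 and 329.8, 380.5 and 263.7 CPM in iSM KO 1 to 3 (log2 fold change 1.24, SE 0.18, FDR 0.00381, edgeR). Of 3 tested cardiomyocyte markers Ryr2 rose, by a log2 fold change of 0.50 (SE 0.13), though not without Control 1, Control 3, iSM KO 1 or iSM KO 2. No Schwann cell, endothelial or macrophage marker passed. Called shares were 75.0% for chondrocyte, 66.7% for adipocyte and 33.3% for cardiomyocyte markers, against 7.56% of all tested genes. They were 14.3% each for smooth muscle and adventitial fibroblast markers. Median log2 fold changes were -1.4 (chondrocyte), -3.3 (adipocyte), -2.3 (brown adipocyte), -0.88 (cardiomyocyte) and 0.12 (smooth muscle), against -0.014 over all genes. These lists are short, and their shares are not read as enrichment. The tested endothelial and macrophage markers all had a negative log2 fold change, with medians of -0.6 and -0.54. All tested Schwann cell markers had a positive one (median 0.18), as did 47.6% of all tested genes. The endothelial sums were 472.9 to 988.3 CPM in Control and 246.7 to 749.3 CPM in iSM KO. The macrophage sums were 22.6 to 25.7 CPM in Control and 9.37 to 29.2 CPM in iSM KO. The calls of Adipoq and Clec3b were lost without iSM KO 1 or 2, and that of Clec3b also without Control 1 or 3. No marker of these lists was at 0 in all 6 libraries, and their part in the CCN values was not tested.

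The genes whose log2 CPM followed each member most closely over the 6 libraries are given as a description, since the points share library and depth and, for several members, a split by group. For Ccn1 they were P3h4 (r = 0.990, rho = 0.771), the flow-responsive factor Klf2 (r = 0.989, rho = 1.0) and the stress-responsive kinase Plk3 (r = 0.981, rho = 0.943). In Klf2, too, Control 2 was highest and iSM KO 2 lowest. For Ccn2 they were Gm37019 (r = 0.996), Emsy (0.994) and Tkfc (0.991), and for Ccn3 Erap1, Ndufs5 and Kcna2 (0.997 each). For Ccn4 they were Tnk2 (0.996), Gtf3c5 (0.995) and Tle2 (0.990), and for Ccn5 Nlrx1 (0.982), Metap1d (0.976) and Per1 (0.975). The number of genes with r over 0.9 was 598 for Ccn3, 500 for Ccn2, 362 for Ccn4, 89 for Ccn1 and 52 for Ccn5, of 16564 compared.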

How the data were processed

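Bulk RNA-seq of 6 aortas was analysed. Per the labels and the study's methods, ribosomal RNA was depleted, paired-end reads of 150 bases were sequenced, and the authors mapped and quantified them with DRAGEN against Ensembl release 101 (mm10). The values the authors deposited are estimated counts per gene, not normalized. The handling of strand and of reads matching several genes is not given in the sources used here.

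Counts were rounded to whole numbers, and a gene was kept if its count exceeded 10 in every library of a group, which left 16565 genes. Tests used edgeR 4.0.16 (TMM, glmQLFit and glmQLFTest, 6 libraries, no covariates, R 4.3.3) with Benjamini-Hochberg adjustment over all kept genes (FDR). A standard error is the absolute log2 fold change divided by the square root of F. The scripts were tested on simulated data. Exon lengths and gene positions came from GENCODE M21 and promoters from RefSeq. No pair of libraries agreed within sampling noise in a chi-square test. The alternatives were DESeq2 1.42.0, limma-voom (limma 3.58.1), DESeq2's size factors, no filter, filterByExpr, a block for the replicate number, fits lacking 1 library, transcript length and rank correlation.

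The members and gene lists were chosen with earlier results of these data known. Genes named were the 6 members, Prdm16, a set of 16 receptors and regulators, up to 4 genes in each direction of a list by adjusted p, and the 3 genes most like each member. Cell type markers and further genes with a value in text were named outside this rule, and the adipocyte sum without Plin4 was added, after their values were seen. A further result under this rule is not reported here.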

Additional observations from a re-analysis of the deposited data

How the results depend on the processing

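CCN members with an FDR under 0.05 numbered 2 (Ccn3 and Ccn4), 4 without the low-count filter (Ccn1 to Ccn4), 1 with the replicate block, and 1 to 3 when each library was left out. With limma-voom they were Ccn2 and Ccn3, and with the block Ccn3. Over all genes, 1252 of 16565 had such an FDR in the main fit, 1777 of 30712 without the filter and 775 of 16565 with the block. Fits lacking a library gave 516 of 16883 (without iSM KO 2) to 1402 of 16667 (without Control 2). The family was selected on this contrast, so nothing is read from the member counts. The list genes called numbered 21, 37 without the filter, and 11 to 25 when each library was left out, with 13 without iSM KO 1 and 11 without iSM KO 2. Genes past both thresholds numbered 461, 353 with the replicate block, and 290 (without iSM KO 2) to 528 when each library was left out. Same-numbered libraries did not deviate together (correlations of -0.132, -0.0455 and -0.107), so the numbers were not taken as pairs. The order of the members per kilobase was kept in all alternatives run on it. By rank correlation, the median likeness of 0.991 became 0.943. Of 396 values of 33 regulator and list genes under alternatives, the CCN genes and Prdm16 aside, 346 kept direction and call, 37 lost the call, 7 gained it, 6 moved and 0 reversed as called values. Ccn6 was not detectable at this depth, and 3 libraries a group limit every comparison.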
